A study of Mus musculus with 8 samples.

Results

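The genes described here are 9 factors that act in paraxial mesoderm and in the segmentation of this tissue, namely Mesp1, Mesp2, Msgn1, Tcf15, Hes7, Lfng, Meox1, Foxc1 and Foxc2. They were taken by name from the 18094 genes of an RNA-seq table, and all 9 were found. Of these, 8 passed a filter of at least 10 normalized counts on average over the libraries and were tested together with 15767 genes in all. Meox1 was below the filter. The study asked whether lysine 20 of the chromatin protein CTCF is needed when mouse embryonic stem cells (mESCs), self-renewing cells taken from the early embryo, differentiate. WT cells of the E14Tg2A line were compared with CTCF-K20R cells of the same line, in which CRISPR/Cas9 and a donor vector had replaced lysine 20 of CTCF with arginine. Day 0 samples were mESCs, which were cultured with LIF and 2i on mouse embryo fibroblasts that no longer divide. Day 4 samples were embryoid bodies (EBs), aggregates formed in hanging drops in medium with serum and no LIF. There were 4 groups and 2 libraries for each, and the sources used here do not state how many CTCF-K20R clones these came from.

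Paraxial mesoderm forms from the primitive streak and lies beside the neural tube as presomitic mesoderm, from which somites bud off in a regular rhythm. The rhythm comes from a segmentation clock, in which Notch targets such as Hes7 and Lfng switch on and off. WNT and FGF signals keep the tissue immature, the T-box factors T and Tbx6 act in its formation, and bHLH factors of the Mesp family set the somite border. Tcf15, Meox1, Foxc1 and Foxc2 act in the epithelial somite and in its derivatives.

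Library totals lay between 19412659 and 21311513 normalized counts, and 3 reads, taken as the limit of detection, were worth 2.44 to 3.43 normalized counts. The paired WT libraries of either day differed by less than the sampling noise, with a squared difference of 0.314 times that noise on day 0 and 0.278 times on day 4, against 4.00 and 4.37 times in CTCF-K20R. Each WT pair was therefore counted as 1 sample, and both CTCF-K20R libraries of a day as separate samples. Pluripotency markers summed to between 119600 and 124400 normalized counts in the day 0 libraries, and primitive streak markers to between 67880 and 68170 in WT EBs and between 5750 and 5778 in CTCF-K20R EBs. Of 9 markers of feeder fibroblasts in the table, the summed level was 601.1 to 609.9 in WT mESCs, 199.7 to 205.8 in CTCF-K20R mESCs, 972.9 to 991.7 in WT EBs and 907.3 to 955.2 in CTCF-K20R EBs. Most of the sum in mESCs came from Thy1, at 465 and 459 in WT and 104 and 103 in CTCF-K20R. Of the other markers, Col1a1 was at 17 and 16 in WT mESCs and 34 and 32 in CTCF-K20R mESCs. Col1a2 was at 28 and 26 in WT mESCs and 22 and 12 in CTCF-K20R mESCs, and Fbn1 and Loxl1 were also above the limit in every mESC library. Lum was under the limit in all libraries and Col3a1 in the mESC libraries, and Postn and Dcn were at 0 in every mESC library. In EBs, Dcn was at 1.0 and 0.88 in WT and at 15.4 and 14.9 in CTCF-K20R. On day 4, 2 of the 7 fibroblast markers tested were called higher (Col3a1, at 4.1 and 3.5 in WT EBs against 62.9 and 22.4 in CTCF-K20R EBs, and Thy1) and 2 lower (Fbn1 and Postn). Of all genes tested, 6.89% were called higher and 8.65% lower on that day. The part of feeder cells in the differences below was not tested. Gene-level counts do not show the point mutation itself.

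On day 4, 7 of the 8 genes tested were lower in CTCF-K20R EBs than in WT EBs, among them both Mesp genes, Msgn1, both clock genes and both Foxc genes, while Tcf15 was higher. Of all genes tested, 8.65% were called lower and 6.89% higher on that day, where a call needs an adjusted p under 0.05 in limma (Benjamini-Hochberg adjustment over all 15767 genes) and an absolute log2 fold change above 1. The log2 fold changes of the 8 genes, on log2(normalized counts + 1), ran from -9.79 to 2.22 with a median of -3.78, against a median of 0.0087 for all genes tested. Mesp1, Msgn1, Foxc1 and Foxc2 passed the filter only through their level in WT EBs. Their lower calls, and the medians here and in the interaction below, are therefore not independent of the filter. In such bulk samples, fewer cells of a type and less RNA per cell cannot be told apart.

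**Figure D1:**
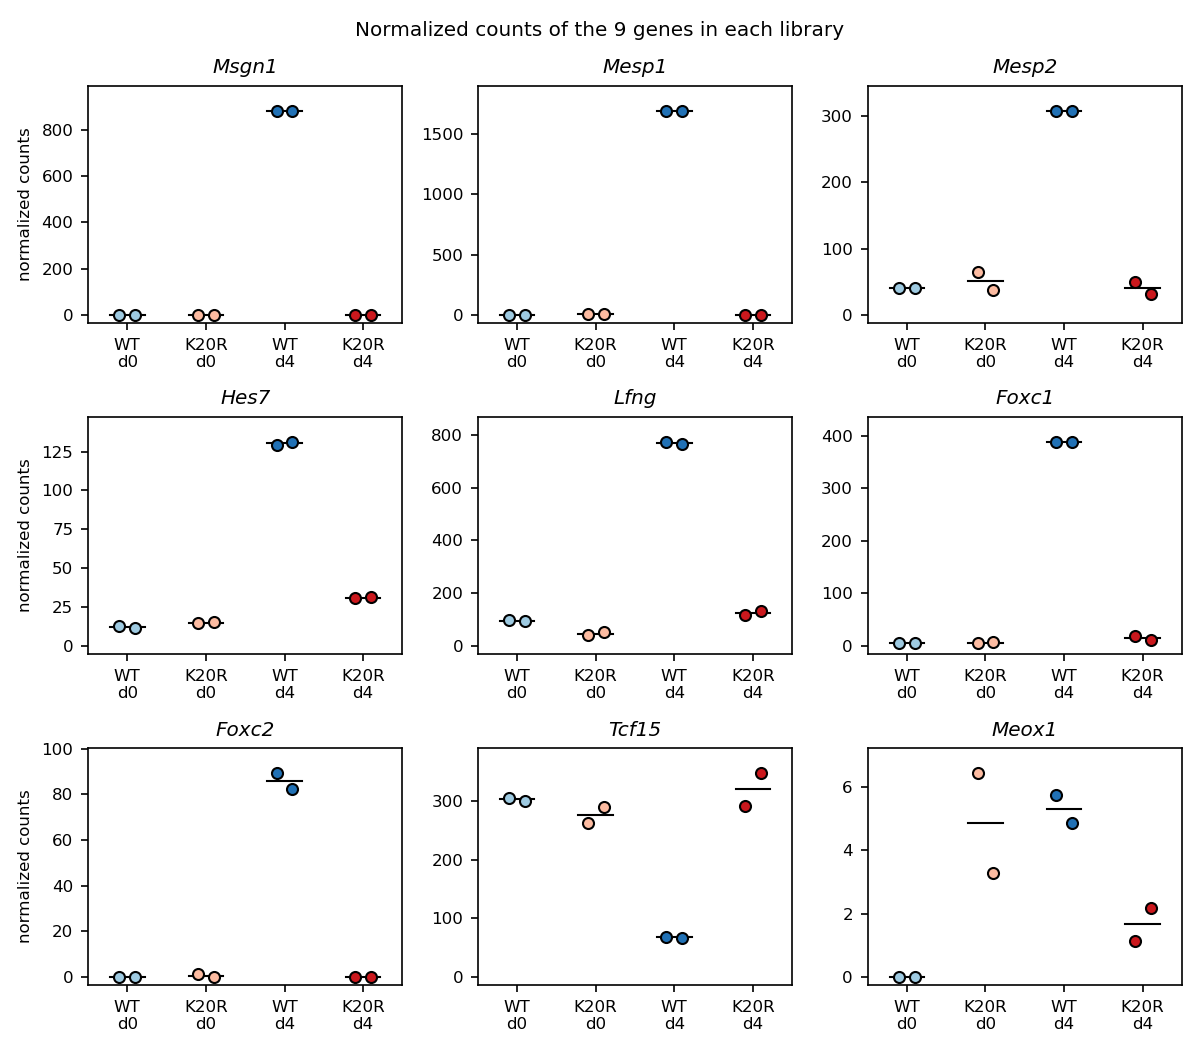
Normalized counts (y axis, linear and scaled to each gene) of the 9 genes in the 2 WT and 2 CTCF-K20R (K20R) libraries of day 0 (d0) and day 4 (d4); points are libraries and lines are group means. In 7 panels only the WT EBs stand high, Tcf15 is low in WT EBs alone, and Meox1 stays under 7 normalized counts everywhere.

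Msgn1 encodes a bHLH factor of the presomitic mesoderm that acts downstream of WNT signalling. It was at 1.15 and 0.957 normalized counts in WT mESCs, at 0 in both CTCF-K20R mESC libraries, at 881 and 884 in WT EBs and at 0 in both CTCF-K20R EB libraries. No read of this gene was thus counted in any CTCF-K20R library of either day. Against the limit of 3 reads, Msgn1 was at least 257-fold lower in CTCF-K20R EBs. The fitted log2 fold change was -9.79 (SE 0.600, limma adjusted p = 0.000234), whose size depends on the pseudocount.

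Mesp1 encodes a bHLH factor that marks nascent mesoderm, including the cells that give rise to the heart. Its level was 1.14 and 0.951 normalized counts in WT mESCs, 5.57 and 5.61 in CTCF-K20R mESCs, 1697 and 1693 in WT EBs, and 2.40 and 1.07 in CTCF-K20R EBs. The last pair lies under the limit of detection and below the WT EBs, which count as 1 sample. The ratio of WT to CTCF-K20R EBs was 976, with a 95% counting interval of 348 to 4950, and the fitted log2 fold change was -9.32 (SE 0.537, limma adjusted p = 0.000197). On day 0 the order was the opposite, with a CTCF-K20R to WT ratio of 5.35 and a wide counting interval of 0.744 to 227. The fitted log2 difference on day 0 was 1.69 (95% interval 0.34 to 3.03, limma adjusted p = 0.0961), which did not pass the test.

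Mesp2, its paralog, encodes the bHLH factor that places the somite border and sets the polarity of the somite. It measured 39.8 and 40.9 normalized counts in WT mESCs, 64.9 and 37.8 in CTCF-K20R mESCs, 308.3 and 308.5 in WT EBs, and 49.3 and 31.4 in CTCF-K20R EBs. Unlike Mesp1, it was detected in every library, and of the CTCF-K20R EBs 1 library stood within the range of the mESC libraries and 1 below it. WT EBs held 7.65-fold more (log2 fold change -2.94, SE 0.452, limma adjusted p = 0.00498). Without replicate 1 of the CTCF-K20R EBs the log2 fold change was -3.26 (limma adjusted p = 0.0512) and without replicate 2 it was -2.62 (limma adjusted p = 0.0668), so the call was lost at a similar size. With 1 library left out, both EB groups are 1 sample and the spread comes from the CTCF-K20R mESCs alone.

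The Mesp genes lie side by side on chromosome 7 of GRCm38, Mesp1 from 79792241 to 79793788 on the minus strand and Mesp2 from 79810727 to 79813439 on the plus strand, with start sites 16939 bases apart and pointing away from each other. Msgn1 is a gene of 1 exon on chromosome 12, from 11208360 to 11208972 on the minus strand. The letters around the starts of the genes that moved together are shown because T-box factors, the Notch effector RBPJ and the WNT effectors TCF and LEF are known regulators of presomitic genes. The windows, from RefSeq on GRCm38.p6, run from 250 bases before to 50 bases after a start, were available for 6 of the 9 genes, and were searched on both strands for AGGTGT (T-box), GTGGGAA (RBPJ), CTTTGA (TCF/LEF), CANNTG (E-box) and AGGNGGC (CTCF core). Capitals mark matches to the first 3 of these or their reverse complements, and positions count from the start, negative before it. GENCODE puts the start upstream of the RefSeq start used for these positions in Mesp1, Msgn1, Hes7, Lfng and Foxc1, and at the same base in Mesp2. The T-box letters of both Mesp genes and the RBPJ letters of Hes7 are shown with their nearest bases, and the windows of Msgn1 and Lfng are shown up to the start.
Mesp1, chr7:79793806-79793835, minus strand, match at -233: cctaataaatgaAGGTGTaccctaagccta
Mesp1, chr7:79793566-79793595, minus strand, match at 8: ggggcccgcttcACACCTagggctcaggat
Mesp2, chr7:79810744-79810773, plus strand, match at 30: gggtcagaatccACACCTctgcaaatgggc
Hes7, chr11:69120262-69120290, plus strand, match at -180: cctcccctcacTTCCCACatttggggcta
Msgn1, chr12:11208949-11209198, minus strand: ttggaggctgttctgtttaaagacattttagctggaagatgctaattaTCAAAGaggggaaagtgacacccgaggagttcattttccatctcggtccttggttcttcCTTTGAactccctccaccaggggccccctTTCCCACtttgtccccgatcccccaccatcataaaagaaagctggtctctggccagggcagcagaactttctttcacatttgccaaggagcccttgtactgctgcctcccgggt
Lfng, chr5:140607091-140607340, plus strand: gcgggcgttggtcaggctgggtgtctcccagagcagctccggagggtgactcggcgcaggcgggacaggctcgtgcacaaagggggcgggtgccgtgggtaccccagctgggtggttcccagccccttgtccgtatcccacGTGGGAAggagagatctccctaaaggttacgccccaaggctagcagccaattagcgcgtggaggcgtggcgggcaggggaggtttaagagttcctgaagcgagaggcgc

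T-box letters were found 2 times in the window of Mesp1 and 1 time in that of Mesp2, and 13.7% of all 32851 windows hold them. RBPJ letters were found 1 time each in the windows of Msgn1, Hes7 and Lfng, and 6.38% of all windows hold them. In Lfng the RBPJ match overlaps an E-box, CACGTG, at position -112. TCF/LEF letters were found 2 times each in Mesp1 and Msgn1, against 16.0% of all windows with a match. The CTCF core letters were found 1 time each in Msgn1, Hes7, Lfng and Foxc1 and not in the Mesp windows, and 29.4% of all windows hold them. E-box letters, which 72.3% of windows hold, were found in 5 of the 6 windows, Foxc1 being the one without. These matches describe the letters only, and no binding was measured in the data used here.

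Hes7 encodes the bHLH repressor that oscillates at the core of the mouse segmentation clock. It measured 12.6 and 11.4 normalized counts in WT mESCs, 14.4 and 15.6 in CTCF-K20R mESCs, 129 and 131 in WT EBs, and 30.7 and 31.3 in CTCF-K20R EBs. The CTCF-K20R EBs thus lay between the mESCs and the WT EBs, with no overlap between any of these. WT EBs held 4.2-fold more (log2 fold change -2.04, SE 0.353, limma adjusted p = 0.00764). Hes7 lies on chromosome 11 from 69120404 to 69124055 and overlaps 9130213A22Rik on the opposite strand, and since the sources do not state whether counting used strand, reads of the overlap are uncertain.

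Lfng encodes the glycosyltransferase that modifies Notch receptors and whose own expression cycles with the clock. It was at 96.2 and 94.5 normalized counts in WT mESCs, at 41.3 and 51.9 in CTCF-K20R mESCs, at 775 and 766 in WT EBs, and at 117 and 131 in CTCF-K20R EBs. CTCF-K20R was lower than WT on both days, with WT counted as 1 sample a day. On day 4 WT EBs held 6.22-fold more (log2 fold change -2.63, SE 0.239, limma adjusted p = 0.00084). On day 0 WT mESCs held 2.05-fold more (log2 fold change -1.03, SE 0.239, limma adjusted p = 0.0438), which made Lfng the only one of the 8 genes called on that day. This day 0 call was lost in 10 of 20 alternative settings. Among these, the adjusted p was 0.119 without replicate 1 and 0.0760 without replicate 2 of the CTCF-K20R mESCs, 0.143 without either CTCF-K20R EB library, and 0.171 with only the mESC groups in the fit.

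Foxc1 and Foxc2 encode related forkhead factors of paraxial and intermediate mesoderm, which act together in somite formation. Foxc1 measured 4.61 and 5.79 normalized counts in WT mESCs, 5.66 and 6.70 in CTCF-K20R mESCs, 389 and 388 in WT EBs, and 18.5 and 11.7 in CTCF-K20R EBs. WT EBs held 25.7-fold more (log2 fold change -4.63, SE 0.469, limma adjusted p = 0.0012). Foxc2 was at 0 in both WT mESC libraries, at 1.15 and 0 in CTCF-K20R mESCs, at 89.6 and 82.5 in WT EBs, and at 0 in both CTCF-K20R EB libraries. Both genes were therefore high in WT EBs alone, and Foxc2, like Msgn1, had no read in CTCF-K20R EBs. Foxc2 was at least 25.1-fold lower in CTCF-K20R EBs, with a fitted log2 fold change of -6.44 (SE 0.768, limma adjusted p = 0.00211) that depends on the pseudocount. Foxc1 is a gene of 1 exon on chromosome 13, from 31806633 to 31812476. Foxc2 lies on chromosome 8 from 121116171 to 121118895 and overlaps Gm20388 on the same strand, so the reads of the overlap could be split between them.

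Tcf15, also known as paraxis, encodes a bHLH factor needed for the epithelial state of somites, and it is also expressed in mESCs that are primed to differentiate. It was at 305 and 301 normalized counts in WT mESCs, at 262 and 289 in CTCF-K20R mESCs, at 68.1 and 67.0 in WT EBs, and at 292 and 348 in CTCF-K20R EBs. Tcf15 was the only one of the 9 genes that was lower in WT EBs than in WT mESCs, and the CTCF-K20R EBs stood near the mESC level. CTCF-K20R EBs held 4.74-fold more than WT EBs (log2 fold change 2.22, SE 0.177, limma adjusted p = 0.000541). On day 0 the log2 difference was -0.14 (95% interval -0.58 to 0.30, limma adjusted p = 0.646). The gene lies on chromosome 2 from 152143561 to 152149097.

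Meox1 encodes a homeobox factor of the somites. It measured 0 in both WT mESC libraries, 6.46 and 3.30 normalized counts in CTCF-K20R mESCs, 5.76 and 4.87 in WT EBs, and 1.14 and 2.18 in CTCF-K20R EBs, with a mean of 2.96 over the 8 libraries. These are at most about 6 reads a library, so the order of the groups cannot be read beyond counting error. On day 4 the WT to CTCF-K20R ratio was 3.20 with a counting interval of 0.679 to 19.6, and on day 0 CTCF-K20R had 6 and 3 reads against 0 in WT. Meox1 lies on chromosome 11 from 101877510 to 101894374 and overlaps Gm11551 on the opposite strand.

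**Figure D2:**
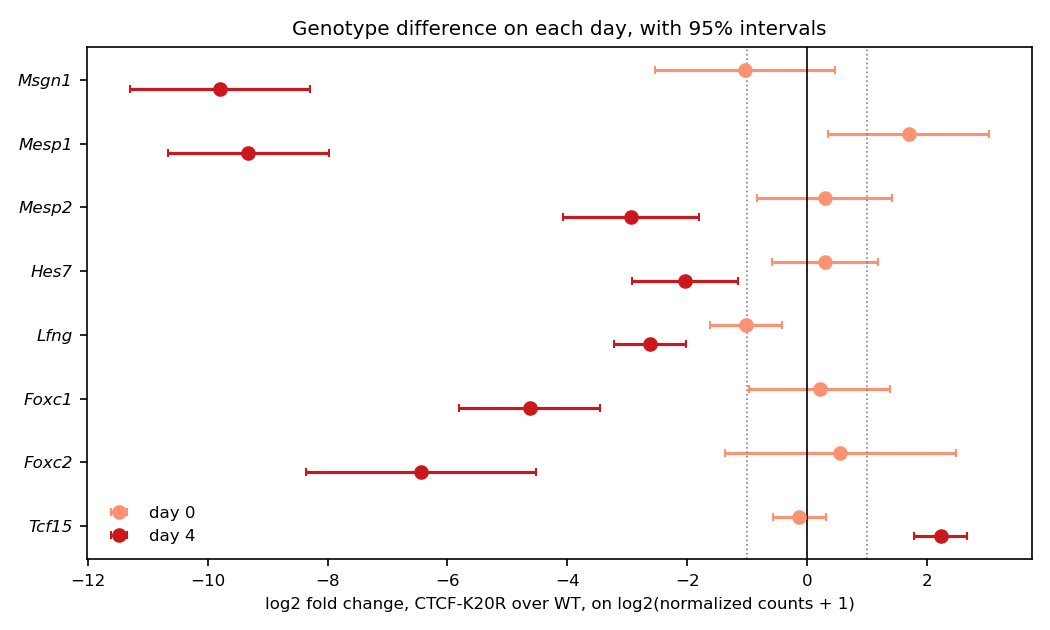
Log2 fold change of CTCF-K20R over WT (x axis, on log2(normalized counts + 1)) on day 0 (light) and day 4 (dark) for the 8 genes tested, with 95% intervals from limma; dotted lines mark the minimum of 1 in either direction. The day 4 intervals exclude 0 in all 8 genes, while on day 0 only those of Mesp1 and Lfng do.

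The day 0 comparison asked whether the genes already differed before differentiation. Of the 8 genes, 1 was called lower (Lfng) and 0 higher, against 2.6% and 1.19% of all genes tested, and Mesp1 and Lfng had an unadjusted p under 0.05. The median log2 difference of the 8 genes was 0.249, against -0.012 for all genes. The intervals of the other 6 genes include 0. They are narrow for Tcf15, given above, and wide for the genes with few reads, such as Foxc2 (-1.37 to 2.47) and Msgn1 (-2.54 to 0.46).

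Whether the genotype difference changed between the days was tested as an interaction, the day 4 difference minus the day 0 difference. It was called lower for 7 genes and higher for 1 (Tcf15), where 6.04% of all genes tested were called lower and 6.84% higher, and the median was -4.03 against 0.016 for all genes. The interaction was -11.01 for Mesp1 (SE 0.760, limma adjusted p = 0.000754) and 2.36 for Tcf15 (SE 0.250, limma adjusted p = 0.00259). Lfng, which was lower on both days, had the smallest value, -1.60 (SE 0.339, limma adjusted p = 0.0223). The calls of Mesp2, Hes7, Lfng and Foxc2 were lost when either CTCF-K20R EB library was left out, which again leaves only the mESCs to give the spread. The interactions then ran from -3.55 to -2.91 for Mesp2, -2.35 to -2.32 for Hes7 and -1.68 to -1.52 for Lfng, and that of Foxc2 was -7.00 both times. Without replicate 1 and without replicate 2 of these EBs, the adjusted p was 0.0874 and 0.111 for Mesp2, 0.0758 and 0.0751 for Hes7, 0.117 and 0.106 for Lfng, and 0.0562 and 0.0567 for Foxc2. Hes7 also lost its call without replicate 1 (adjusted p = 0.0533) or replicate 2 (0.0593) of the CTCF-K20R mESCs in limma, and Lfng without replicate 2 (0.0526).

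The change from mESCs to EBs was then read within each genotype. In WT cells, which are 1 sample a day and have no replicate check, the log2 change was 9.70 for Mesp1, 8.75 for Msgn1, 6.44 for Foxc2, 5.97 for Foxc1, 3.34 for Hes7, 3.00 for Lfng, 2.90 for Mesp2 and -2.15 for Tcf15. In CTCF-K20R cells the same change had a median of 0.105 over the 8 genes, against 0.0077 for all genes tested, and 2 genes were called higher and 1 lower, where 14.5% of all genes were called higher and 11.6% lower. Lfng was 2.66-fold higher in CTCF-K20R EBs than in CTCF-K20R mESCs (log2 change 1.40, SE 0.195, limma adjusted p = 0.00195), which held in all 20 alternatives. Hes7 was 2.06-fold higher, and its log2 change of 0.9995 (limma adjusted p = 0.029) fell just short of the minimum of 1. Foxc1 was called higher (log2 change 1.14, limma adjusted p = 0.0475) on 16.2 and 10.8 estimated reads against 5.26 and 6.09, and the call was lost in 10 of 20 alternatives. Among these, the adjusted p of Foxc1 was 0.141 and 0.0963 without replicate 1 or 2 of the CTCF-K20R mESCs, and 0.112 without replicate 1 of the EBs. Mesp1 was called lower (log2 change -1.31, limma adjusted p = 0.0468), on levels of which the later ones are under the limit of detection, and the counting interval of its ratio of 3.22 runs from 0.837 to 18.4. This Mesp1 call was lost without replicate 1 (0.118) or 2 (0.120) of the CTCF-K20R mESCs and without replicate 2 of the EBs (0.0728). Tcf15 changed by 0.21 (95% interval -0.15 to 0.57) and Mesp2 by -0.33 (95% interval -1.25 to 0.60) on the log2 scale, and neither passed the test. All of these comparisons draw on the same 8 libraries and are not independent.

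Levels can be compared between genes only per length of transcript. In WT EBs the order, in normalized counts per kb of the longest annotated transcript, was Msgn1 (1440), Mesp1 (1329), Lfng (334), Mesp2 (159), Hes7 (72.0), Tcf15 (68.9), Foxc1 (66.5), Foxc2 (31.6) and Meox1 (2.39). In CTCF-K20R EBs it was Tcf15 (326), Lfng (53.7), Mesp2 (20.7), Hes7 (17.1) and Foxc1 (2.59), while Mesp1 and Meox1 were under the limit of detection and Msgn1 and Foxc2 at 0, so that these 4 have no order. Tcf15 thus stood sixth in WT EBs and first in CTCF-K20R EBs. With WT EBs counted as 1 sample, their neighbours in the order have no replicate error to be set against.

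Among the 8 genes, the profiles over the libraries were compared by the root mean square distance between centred log2 values, a description in which the points share 8 libraries. Hes7 and Lfng were the closest pair (0.519), followed by Mesp2 and Hes7 (0.609). Foxc1 and Foxc2 were 0.812 apart and Mesp1 and Msgn1 0.998 apart, while the paralogs Mesp1 and Mesp2 were 2.74 apart. Among all genes tested, the 2 closest to each were Fam107a (0.177) and Lrrc56 (0.246) for Mesp2, Dpysl5 (0.140) and Wnt11 (0.157) for Hes7, and Arhgef26 (0.161) and Epha7 (0.212) for Lfng. Wnt11, a WNT ligand, was at 231 and 228 normalized counts in EBs of WT, against 45.0 and 56.0 in EBs of CTCF-K20R. Mesp1, Msgn1, Foxc1 and Foxc2 passed the filter only through WT EBs. The closest were Gm15284 (0.722) and Prdm6 (0.738) for Mesp1, and Gm15284 (0.441) and Sprr2a1 (0.682) for Msgn1. They were Hoxb3os (0.240) and 4930412O13Rik (0.245) for Foxc1, and Ntng1 (0.368) and Tekt4 (0.377) for Foxc2. For Tcf15 they were Unc13a (0.116) and Cdk5r2 (0.134), both of which were likewise lowest in WT EBs. Unc13a, a factor of synaptic vesicle release, measured 183 and 192 normalized counts there and 876 and 921 in CTCF-K20R EBs.

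The nearest tested gene on either side was read to see whether the day 4 differences extended along the chromosome. Apart from Mesp1 and Mesp2, which are each other's neighbours, 2 of the 16 neighbours were called, both lower, a count near the background of 8.65% of all genes called lower and 6.89% called higher. These were Foxq1, a forkhead gene 250 kb from Foxc1 (log2 fold change -4.42, limma adjusted p = 0.00819), and Kcns3, a potassium channel gene 118 kb from Msgn1 (log2 fold change -3.19, limma adjusted p = 0.00197). Distances to neighbours are between the lower chromosome coordinates of both genes, whatever their strand, and not between start sites. Foxq1 was at 439 and 430 normalized counts in EBs of WT, against 20.3 and 18.4 in EBs of CTCF-K20R. On the other side of the same genes, Gmds (12.9 kb, -0.17) and Gen1 (30.6 kb, -0.10) did not pass the test. Beside the Mesp genes, Wdr93 differed by 0.32 and Anpep by -0.63 on the log2 scale, and neither was called. Beside Tcf15, Srxn1 differed by 0.943 on day 4 and -0.998 on day 0, just under the minimum fold change on both days. Beside Meox1, Etv4, a target of FGF and ERK signalling, was at 84.0 and 80.8 normalized counts in WT mESCs and at 1234 and 1096 in CTCF-K20R mESCs (log2 fold change 3.80, limma adjusted p = 0.00069). The median day 4 difference of all tested genes within 5 Mb of each gene lay between -0.107 and 0.0532, over 22 to 214 genes.

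**Figure D3:**
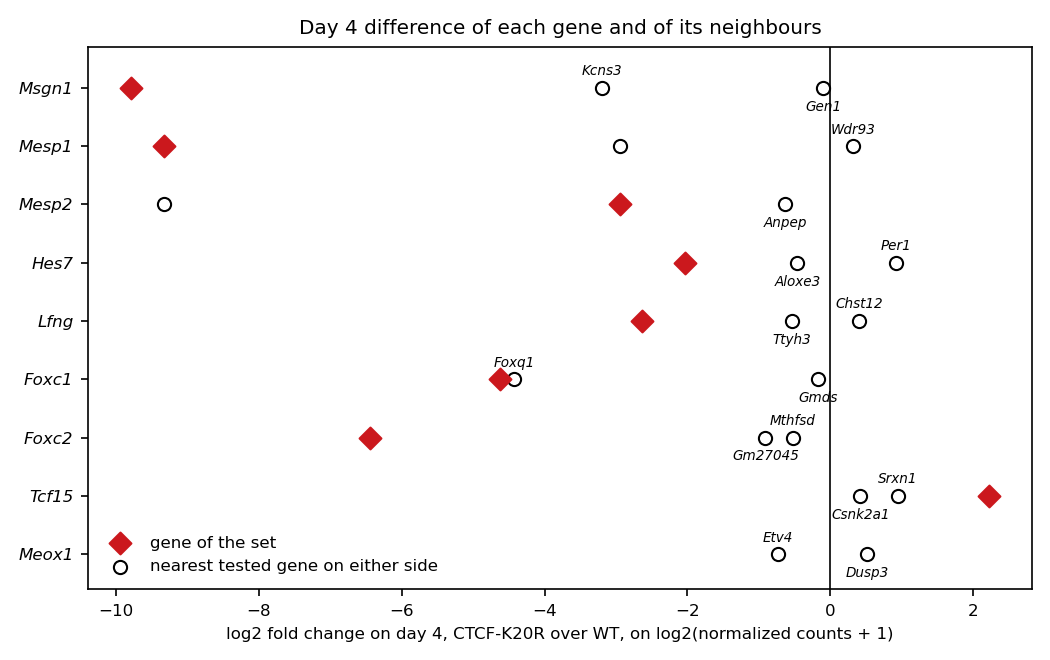
Log2 fold change on day 4 (x axis, CTCF-K20R over WT, on log2(normalized counts + 1)) of the 8 genes tested (diamonds) and of the nearest tested gene on either side of each of the 9 (circles). Foxq1 and Kcns3 lie far to the left beside Foxc1 and Msgn1, the unlabelled circles are Mesp1 and Mesp2 themselves, and the other neighbours lie between -1 and 1.

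Other genes of the pathway were read from 4 lists. Beside the counts of these lists, 8.65% of all genes tested were called lower on day 4 and 6.89% higher. Some genes of the lists, such as Cyp26a1 and Cer1, passed the filter only through their level in WT EBs. The lower calls, medians and largest differences of the lists are therefore not independent of the filter. Of 22 tested genes for presomitic and paraxial mesoderm, 17 were lower and 1 higher in CTCF-K20R EBs, with a median log2 fold change of -4.36. The largest differences were in Cyp26a1, which clears retinoic acid in the tail bud (-9.52, limma adjusted p = 0.000523), Pdgfra, a receptor of early mesoderm (-6.74, limma adjusted p = 0.000249), and Wnt5a (-6.06, limma adjusted p = 0.000322). Tbx6, the T-box factor upstream of Mesp2, was at 784 and 794 normalized counts in EBs of WT, against 36.4 and 25.6 in EBs of CTCF-K20R (-4.65, limma adjusted p = 0.000788). T was at 20700 and 20900 in WT EBs and at 520 and 515 in CTCF-K20R EBs (-5.33, limma adjusted p = 2.53e-05). It was the 1 gene of this list that was called lower on day 0 as well (-1.53, limma adjusted p = 0.00291). Cdx1 was called higher on day 0 (1.53, limma adjusted p = 0.0273) and lower on day 4 (-1.65, limma adjusted p = 0.00875). Tbx6, T and Cdx1 were added after their values were seen. The gene that was higher was Fgf4, an FGF ligand of mESCs and the streak (1.39, limma adjusted p = 7.42e-05).

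Of 22 tested genes for the segmentation clock and Notch feedback, 11 were lower and 1 higher on day 4, with a median of -0.908. Cer1, a secreted antagonist that is expressed in nascent somites and anterior endoderm (-9.72, limma adjusted p = 0.000231), Dkk1, a WNT antagonist (-6.27, limma adjusted p = 0.00055), and the Notch ligand Dll1 (-3.60, limma adjusted p = 0.00226) differed most. Dll1 was at 1212 and 1237 normalized counts in EBs of WT, against 91.5 and 109 in EBs of CTCF-K20R. Of the general Notch machinery of the list, Rbpj (0.11), Notch2 (0.04), Maml1 (-0.41), Pofut1 (-0.15) and Notch1 (-0.80) were not called. Maml1 (limma adjusted p = 0.0154) and Notch1 (limma adjusted p = 0.03) fell short only of the minimum fold change. Ripply1, a co-repressor of T-box factors at the somite border, was higher (1.44, limma adjusted p = 0.0322), at 13.4 and 14.5 normalized counts in EBs of WT, against 48.2 and 32.6 in EBs of CTCF-K20R.

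Of 20 genes listed for somite differentiation, 16 were in the table and 5 passed the filter, of which 3 were lower and 1 higher. Prrx1 (-3.18), Twist1 (-2.03) and Eya1 (-1.93) were lower, with limma adjusted p of 0.00521, 0.00273 and 0.00409. Pax9, Uncx and Nkx3-2 were under the limit of detection in all 8 libraries. Of the 7 dimerization partners and inhibitors of bHLH factors, the inhibitors Id1 (-2.36), Id3 (-1.65) and Id4 (-1.31) were lower and none was higher, with limma adjusted p of 0.000152, 0.000234 and 0.027. The E protein partners Tcf3 (-0.43), Tcf4 (-0.36) and Tcf12 (-0.95), with which Mesp and Msgn1 proteins pair, remained under the minimum fold change. Their limma adjusted p were 0.000925, 0.024 and 0.00122, so the size of the difference alone kept them from a lower call.

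**Figure D4:**
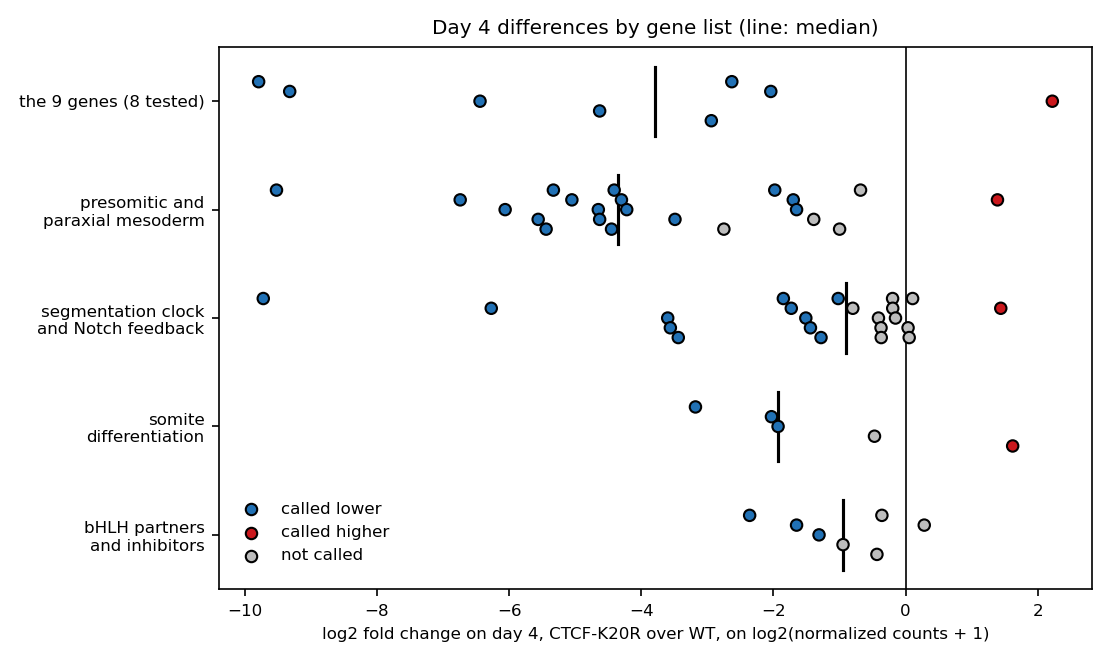
Log2 fold change on day 4 (x axis, CTCF-K20R over WT, on log2(normalized counts + 1)) for the 8 genes tested and 4 lists; points are genes, colours give the call (blue lower, red higher, grey not called) and vertical lines are medians. The medians are -3.78 for the 8 genes, -4.36, -0.908, -1.93 and -0.947 for the lists from top to bottom.

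Markers of the other cells that EBs can hold moved in both directions beside these genes. Of all genes tested, 8.65% were called lower and 6.89% higher on day 4. Of 10 primitive streak markers tested, 8 were called lower and 1, Nodal (1.32), higher in CTCF-K20R EBs. All 5 definitive endoderm markers and 6 of 9 cardiac and lateral mesoderm markers were called lower. Some of these, such as Lhx1, Sox17 and Hand2, passed the filter only through WT EBs, so their lower calls are not independent of it. Of 7 epiblast markers 4 were higher, led by Utf1 (log2 fold change 3.93), Pou3f1 (3.54) and Sox3 (2.75), while Fgf5 (-0.21), Otx2 (-0.12) and Sall2 (0.49) were not called. Of 9 pluripotency markers 5 were called higher and 2 lower, Klf4 (-1.48) and Tbx3 (-1.88). The summed level of the epiblast markers was 23810 to 23850 normalized counts in WT EBs and 53460 to 54810 in CTCF-K20R EBs, and that of the pluripotency markers 16190 to 16340 and 32050 to 32710. Most of the epiblast sum came from Dnmt3b, at 14620 in both WT EB libraries and at 36760 and 38180 in CTCF-K20R EBs. Most of the pluripotency sum came from Pou5f1, at 12600 and 12700 in WT EBs and at 21940 and 21590 in CTCF-K20R EBs. The neural ectoderm markers summed to 5992 to 6002 in WT EBs and 5065 to 5262 in CTCF-K20R EBs, mostly from Sox11 and Nes. Of 5 tested, 2 were called higher. These were Sox1 (4.17), at 1.8 and 1.5 in WT EBs, under the limit, and 40.1 and 53.8 in CTCF-K20R EBs, and Pax6 (2.61). Sox11 (-0.71), Nes (0.41) and Zic1 (-0.35) were not called. The part of a different mix of cells in the differences of the 9 genes was not tested.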

How the data were processed

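RNA was measured by mRNA-seq in 8 libraries. Trimming was done by the authors with Trim_Galore and quantification with salmon (mm10), before tximport gave values per gene that DESeq2 scaled. The deposited signal is these normalized counts. The annotation release and the use of strand are not given in the sources used here. Because a factor specific to each gene and library is contained in them, reads could not be rebuilt as whole numbers, and count models were left out.

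The log2 of each value plus 1 was fitted in limma 3.58.1 under R 4.3.3 (lmFit, eBayes with trend), as 4 group means, for genes with a mean of at least 10, and with Benjamini-Hochberg adjustment. WT pairs were averaged, so 6 samples gave 2 residual and 3.51 prior degrees of freedom, and the WT spread is taken to be that of CTCF-K20R. The study describes the libraries of a group as independent experiments. Intervals of ratios and the limit of 3 reads cover counting error only. Scripts were tested on simulated data. Positions are those of GENCODE vM21 (GRCm38), which held 15664 of the 15767 genes tested, and promoter windows from RefSeq (GRCm38.p6). The members, lists and motifs were chosen with earlier results of these data known. Genes named are the 9 members, the 2 closest profiles of each, the nearest tested gene on either side and the 3 largest calls of each list, and others named were chosen after their values were seen, as was the 5 Mb window. Some genes that meet this rule are not reported here. The part of each alternative is given in the closing section.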

Additional observations from a re-analysis of the deposited data

Results flagged for a closer look

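For 8 genes the genotype difference on day 4 differed from that on day 0 by the test of the difference itself, the interaction in limma. The day 4 minus day 0 difference in log2 fold change was -11.01 for Mesp1, -8.75 for Msgn1, -7.00 for Foxc2, -4.83 for Foxc1, -3.23 for Mesp2, -2.34 for Hes7, -1.60 for Lfng and 2.36 for Tcf15. The values of Mesp1, Msgn1 and Foxc2 rest on libraries at or under the limit of detection, so their size depends on the pseudocount. Groups of 2 libraries are too small to look for single libraries that stand apart.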

How the results depend on the processing

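Over the alternatives run, no called gene changed direction. On day 4, each of the 7 lower and the 1 higher calls held in every alternative that tested the gene, except Mesp2 in the 2 that left out a CTCF-K20R EB library. A minimum mean of 50 left Hes7 and Foxc2 untested. Leaving out 1 library at a time gave 6 to 7 lower and 1 higher of the 9 on day 4, 0 to 1 lower on day 0, 3 to 7 lower and 1 higher for the interaction, and 0 to 1 lower and 1 to 2 higher for CTCF-K20R EBs against mESCs. Over all genes, the calls ranged from 1590 to 2474 on day 4 (2451 in the report), 0 to 615 on day 0 (598), 885 to 2059 for the interaction (2031) and 3460 to 4116 for EBs against mESCs (4117). The 0 of limma on day 0 came without replicate 1 or 2 of the CTCF-K20R EBs, where 4500 and 4507 genes had an unadjusted p under 0.05.

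On day 0 the 1 call (Lfng) fell to 0 with a pseudocount of 5, with genes of any value above 0, with quantile normalization, with only the groups compared, with an adjusted p under 0.01 and with no mean-variance trend. When the WT libraries entered separately, 2 genes were lower (Lfng and Msgn1) and 1 higher (Mesp1). The interaction gave 4 lower calls of the 9 at an adjusted p under 0.01 (Mesp2, Hes7 and Lfng lost) and 5 with no mean-variance trend, where Mesp2 (limma adjusted p = 0.0780) and Lfng (0.0544) were lost. For EBs against mESCs in CTCF-K20R, the lower call (Mesp1) fell to 0 with a pseudocount of 5, with only the groups compared and at 0.01, and the higher calls fell to 1 (Lfng) under these settings, with any value above 0 and with quantile normalization. In the fit over genes with any value above 0, Mesp2 lost its interaction call (limma adjusted p = 0.0558) and Meox1 had an interaction of -3.78 (limma adjusted p = 0.0435) on at most about 6 reads a library.

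Over all genes, calls by adjusted p alone were 6329 on day 4, 2429 on day 0, 4200 for the interaction and 9221 for EBs against mESCs. With separate WT libraries they were 1348 on day 0 and 3340 for the interaction, with only the groups compared 146 on day 0, at 0.01 they were 234 on day 0 and 1113 for the interaction, and with no trend 56 on day 0. The cause of these shifts was not tested, except that fewer samples or stricter thresholds are part of some settings.

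Deviations of same-numbered libraries correlated at -0.010 between the CTCF-K20R mESCs and EBs across 15767 genes, so no pairing was seen there. The other correlations, between -0.031 and 0.030, involve a WT pair. Such pairs differ by less than sampling noise, so these correlations cannot show whether the samples were paired. With the replicate block and averaged WT samples, 7 lower and 1 higher were called on day 4 and for the interaction, 1 lower on day 0, and 0 lower and 1 higher for EBs against mESCs. With the replicate block over all 8 libraries, 2 lower and 1 higher were called on day 0, and over all genes 1344 on day 0 and 3325 for the interaction.

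Groups of 2 libraries and a WT sample without its own spread limit the precision, and genes under about 6 reads a library cannot be ordered.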
